A study of Mus musculus with 12 samples.

Results

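Calcium entry, storage and removal in the pancreatic β cell depend on channels, pumps and exchangers and on the proteins that regulate them. Of the genes named for such roles, 72 were followed here. They are the protein-coding genes named as voltage-gated calcium channel subunits (Cacn), ryanodine and inositol trisphosphate receptors (Ryr, Itpr), calcium ATPases (Atp2a, Atp2b, Atp2c), store-operated entry proteins (Stim, Orai), sodium calcium exchangers (Slc8a, Slc24a), uniporter proteins (Mcu, Micu) and the TRPM and TRPC cation channels. The members were chosen by name, with no measured value in the rule, from 24503 genes of which 18224 are protein-coding. By role there were 10 pore-forming voltage-gated subunits, 16 auxiliary subunits, 6 store release channels, 9 calcium ATPases, 5 store-operated entry genes, 8 sodium calcium exchangers, 5 uniporter genes and 13 TRPM or TRPC channels.

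RNA from isolated mouse islets was sequenced in 12 libraries, made from the islets of 2 mice in each of 6 groups. Wild-type C57BL/6 islets were held for 4 h in 11 mM glucose with diazoxide (11G+D), in 11 mM glucose with FK506 (11G+FK) or in 11 mM glucose alone (11G), and a low glucose group (2G) is labelled untreated, with no glucose concentration or incubation time, so that glucose and the 4 h of culture cannot be told apart in comparisons with it. C57BL/6 islets whose β cells carry channelrhodopsin-2 (ChR2), a cation channel opened by light, were either lit over 40 min in cycles of 1.5 min on and 5 min off, or left without light. Labels for the ChR2 islets give no glucose concentration and do not name the promoter that drives the channel. The islets hold β, α and δ cells, and the tissue was sequenced whole, so that fewer cells of a type and less RNA per cell cannot be told apart in any value that follows.

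In the β cell, closure of ATP-sensitive potassium channels by glucose metabolism depolarizes the membrane and opens voltage-gated calcium channels, and the calcium that enters triggers insulin release. Pumps of the sarco-endoplasmic reticulum type refill the internal store, plasma membrane pumps and exchangers return calcium to the outside, and mitochondria take it up through the uniporter. Diazoxide opens the ATP-sensitive potassium channels and so keeps the membrane hyperpolarized, while FK506 inhibits calcineurin, the calcium-dependent phosphatase that activates the NFAT transcription factors.

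Levels differed widely between the members. In FPKM, a read density scaled to transcript length and library size, 40 members averaged at least 1 over the 8 wild-type libraries and 18 at least 10. Each of the 8 roles was led by a gene found in every wild-type library. The pump of the endoplasmic reticulum Atp2a2 averaged 207 ± 58.5 FPKM and its relative Atp2a3 113 ± 22.2 FPKM (SD over the 8 wild-type libraries, as for the next averages). Cacnb3, a cytoplasmic β subunit of the voltage-gated channels, averaged 55.3 ± 9.64 FPKM. The uniporter gatekeeper Micu2 averaged 30.7 ± 4.41 FPKM, and Stim1, the sensor of store filling, 19.3 ± 4.01 FPKM. The inositol trisphosphate receptor Itpr3 averaged 16.9 ± 2.57 FPKM, and Cacna1c, the pore of an L-type channel, 16.7 ± 4.75 FPKM. Trpm7, a channel fused to a kinase, averaged 11.7 ± 2.25 FPKM, and Slc24a2, a potassium-dependent sodium calcium exchanger, 6.68 ± 2.50 FPKM. Neighbours in this order such as Stim1, Itpr3 and Cacna1c differed by less than their SDs.

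**Figure D1:**
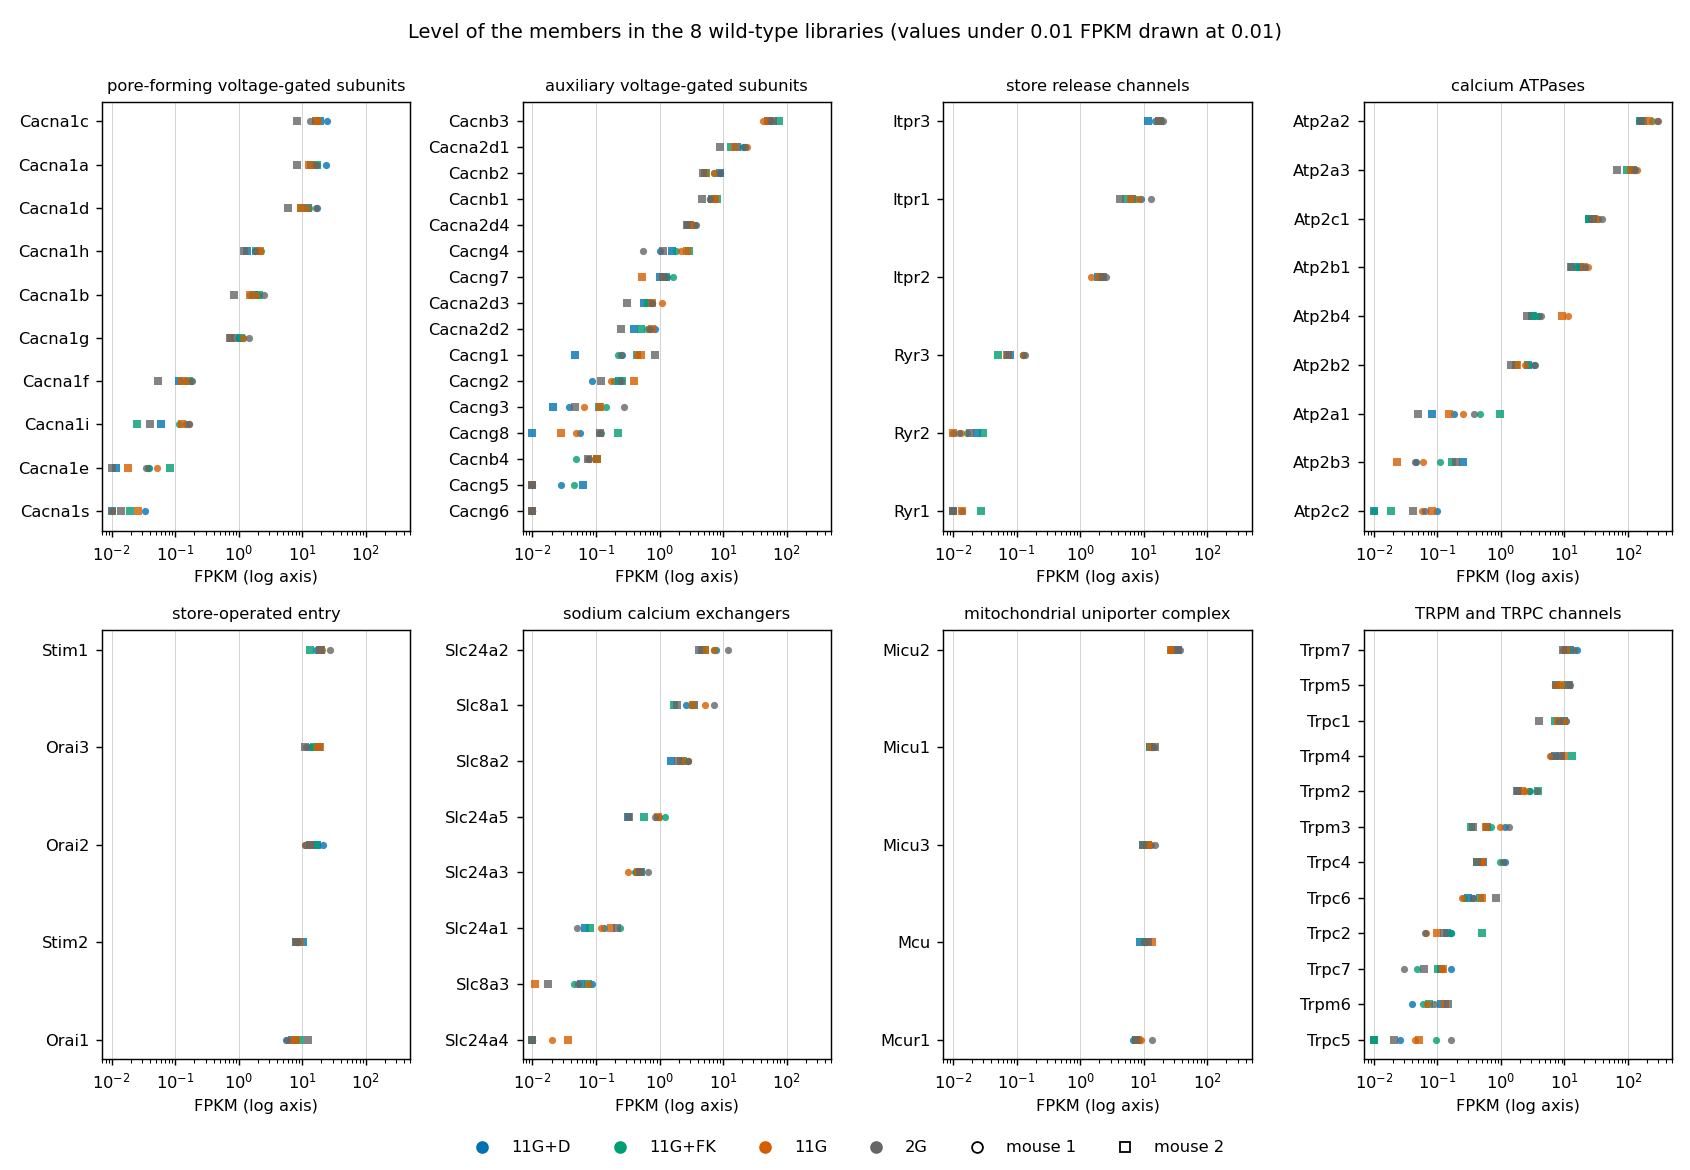
Level of the members, with 1 left out, in the 8 wild-type libraries, by role, in FPKM on a log axis with values under 0.01 drawn at 0.01; colour gives the group and the symbol gives the mouse. Atp2a2 and Atp2a3 stand highest, at 151 to 292 and 67.8 to 138 FPKM, while the ryanodine receptors lie under 0.2 FPKM.

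At the low end, 12 members did not pass the filter on low counts in the wild-type libraries (Atp2c2, Cacna1s, Cacng3, Cacng5, Cacng6, Cacng8, Ryr1, Ryr2, Slc24a4, Slc8a3, Trpc5 and Trpc7). Their counts ran between 0 and 73 per library over all 12 libraries. In the ChR2 libraries 16 members did not pass, so that 60 members were tested in wild-type islets and 56 in ChR2 islets. Ryr2, the ryanodine receptor best known from heart muscle, had 0 to 14 reads per library and reached at most 0.0397 FPKM. Ryr3 was counted in each library, at 13 to 99 reads, and lay between 0.0479 and 0.306 FPKM. Among the voltage-gated pores the R-type pore Cacna1e had 1 to 23 reads per library, and the skeletal muscle pore Cacna1s stayed outside both tests.

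The libraries held between 15196061 and 22892255 counted reads, of which Ins2, an insulin gene, took 4.49% to 7.59%. Counts were tested with edgeR's quasi-likelihood test, with the mouse as a paired factor and Benjamini-Hochberg adjustment over all genes tested; a gene is said to have risen or fallen where its adjusted p was under 0.05. With 2 mice in a group, the p-values measure the spread left between these libraries after the mouse factor. That spread is pooled over the groups of a fit and drawn toward that of the other genes tested. The p-values thus rest in part on other genes, more so in the ChR2 fit, with 1 residual degree of freedom, than in the wild-type fit, with 3. Where libraries of 1 group are said to lie above, below or apart from those of another, that describes few values and is no test. The 8 β cell markers took 7.40% to 11.9% of the reads. Of 11 acinar and 6 immune markers listed, 10 and 5 were found by name, and no marker found was at 0 in any library. At 11G the 10 tested acinar markers, genes of the digestive enzyme cells, had a median log2 change of -2.08 against 2G and 8 of them fell; their summed share was 0.00781% and 0.0462% of reads at 11G, against 0.0557% and 0.102% at 2G. Of the 5 δ cell markers, 2 rose in the same comparison, with a summed share of 0.229% and 0.174% at 11G against 0.137% and 0.103% at 2G. Ductal, stellate and α cell markers had 1 fall each of 7, 7 and 6 tested, β cell markers 1 rise of 8, and endothelial, immune and Schwann cell markers no call of 6, 5 and 5. In 11G+D against 2G, 4 of the 10 acinar markers fell (median log2 change -1.56, summed share 0.0184% and 0.0351% at 11G+D), as did 1 ductal marker, and 1 β cell marker rose. In 11G+D against 11G, 1 β cell and 1 δ cell marker fell and 1 Schwann cell marker rose, in 11G+FK against 11G 1 β cell marker fell, and in 11G+FK against 11G+D there was no call. The part of these cell type shares in the results on calcium genes was not tested.

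Few members changed under any of the treatments: 7 genes account for the 10 calls over the 6 comparisons. At 11G against 2G, 3 of 60 members rose (Atp2b4, Cacng4 and Cacna1c) and 0 fell, while 4.84% of all genes tested passed, 3.13% as rises. In 11G+D against 11G, 1 member fell (Atp2b4), while 3.79% of all genes passed, 2.46% as falls. In 11G+FK against 11G, 1 member fell (Atp2b4 again), while 0.23% of all genes passed, 0.218% as falls. In 11G+D against 2G, 3 members rose (Cacna1c, Orai2 and Trpc1) and 1 fell (Trpm5), while 5.22% of all genes passed, 2.92% as rises and 2.31% as falls. In 11G+FK against 11G+D, edgeR's quasi-likelihood test passed 0 members beside 1.17% of all genes; 14 members had an unadjusted p under 0.05, as did 16.4% of all genes, and DESeq2 passed 1 (Trpm4). Under light, 1 of 56 members fell (Atp2a3), while 0.844% of all genes passed, 0.244% as falls. No comparison called more than 4 members, and at 11G against 2G the share of members, 5.0%, was near that of all genes. The wild-type comparisons share libraries with one another, those of 11G and 2G above all, so that they are not independent.

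The counts of members rest on the paired fit and on single libraries, and the counts over all genes, given beside them, moved the same way in the cases that follow. Without the mouse factor, 0 members passed in each of the 6 comparisons, where the calls over all genes were 68 at 11G against 2G, 59 in 11G+D against 11G, 1 in 11G+FK against 11G, 10 in 11G+D against 2G, 5 in 11G+FK against 11G+D and 0 under light. At 11G against 2G, 1 member passed without the 11G library of mouse 1 (42 of 16795 genes in all) and 7 without the 2G library of mouse 1 (1405 of 16767). In 11G+D against 11G, 3 passed without the 11G+D library of mouse 2 (765 of 16872 genes). For 11G+FK against 11G the count was 0 without the 11G library of mouse 1 (1 gene in all) or the 11G+FK library of mouse 1 (1) or of mouse 2 (0). In 11G+D against 2G it was 0 without the 2G library of mouse 2 (246 of 16782 genes) and 2 without the 11G+D library of mouse 2 (294 of 16872). In 11G+FK against 11G+D it was 1 (Cacnb2, lower) without the 11G+D library of mouse 1 (486 of 16764 genes). Under light it was 0 in the fit of all 12 libraries (6 of 16418 genes), and also when each ChR2 library was left out of that fit in turn (0 to 29 genes), which was used because the ChR2 fit has too few libraries.

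**Figure D2:**
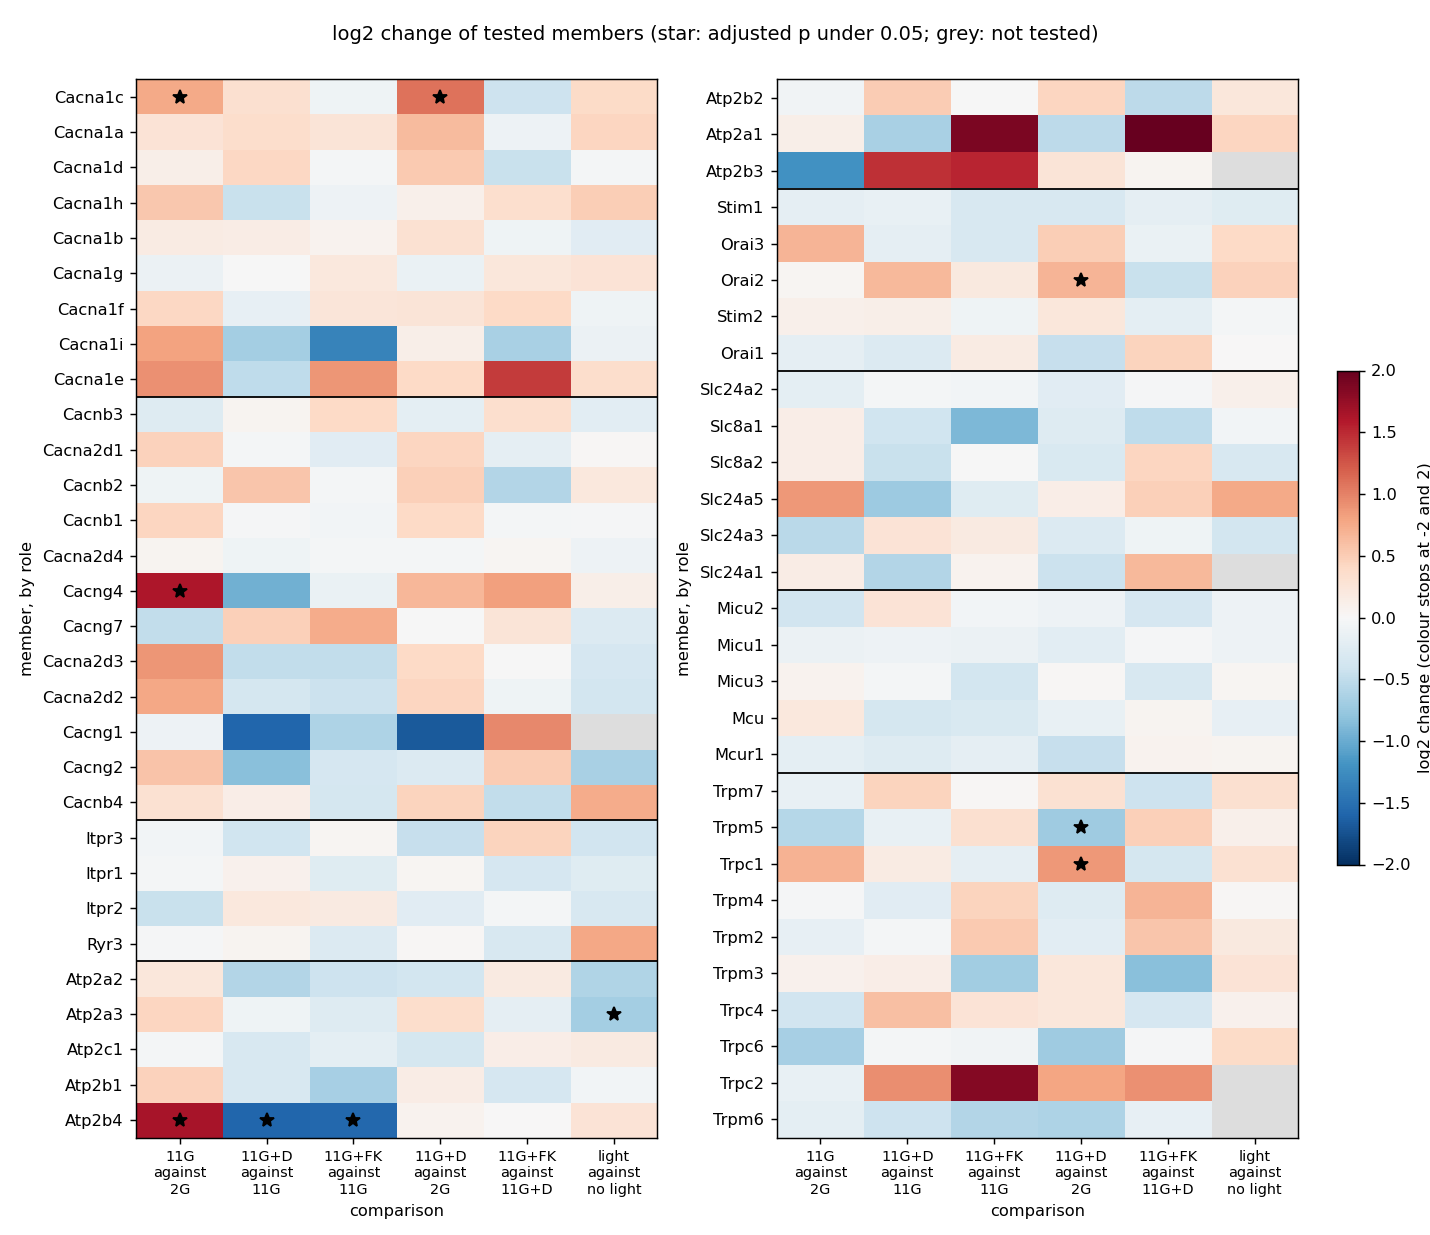
Log2 change of the tested members, with 1 left out, in the 6 comparisons, by role, with red for higher and blue for lower in the first-named group and a star for an adjusted p under 0.05. The stars number 10 over 7 genes; the dark cells of Trpc2, Atp2a1, Atp2b3 and Cacng1 belong to genes of few reads and carry no star.

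Among the pore-forming voltage-gated subunits, 9 of the 10 were tested and Cacna1c changed. Cacna1c (ENSMUSG00000051331, chromosome 6) encodes the pore of an L-type channel. Its level was 24.8 and 19.2 FPKM at 11G+D, 17.0 and 16.6 FPKM at 11G+FK, 17.7 and 16.6 FPKM at 11G, and 13.3 and 8.11 FPKM at 2G, mouse 1 before mouse 2 here and in each pair of values that follows. All 6 libraries held in 11 mM glucose lay above both 2G libraries. At 11G the mean was 17.1 ± 0.751 FPKM against 10.7 ± 3.67 FPKM at 2G (SD, n = 2 each), a log2 change of 0.76 ± 0.17 (SE; 1.69-fold) with an adjusted p of 0.0362. With diazoxide the mean was 22.0 ± 3.95 FPKM, a fitted 2.12-fold against 2G (log2 change 1.09 ± 0.17, adjusted p = 0.0123). Diazoxide against 11G alone gave 0.33 (adjusted p = 0.342), so the higher level with diazoxide than without it did not pass. The rise at 11G did not pass without either 11G library or without the 2G library of mouse 2 (adjusted p = 0.170 to 0.314 in those fits), and that at 11G+D did not pass without the 2G library of mouse 2 (0.0515). In ChR2 islets Cacna1c was at 10.2 and 10.5 FPKM under light and at 6.51 and 9.27 FPKM without light, groups that did not overlap (log2 change 0.39, adjusted p = 0.337). Cacna1c overlaps Dcp1b, a gene on the opposite strand, over 21166 bases; whether counting used strand is not stated, and Dcp1b had a log2 change of 0.91 at 11G+D and of 0.08 at 11G, each against 2G.

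The other pores moved less or less evenly. Cacna1a, the P/Q-type pore, was at 23.8 and 13.5 FPKM at 11G+D, 17.3 and 17.0 FPKM at 11G+FK, 15.1 and 12.8 FPKM at 11G and 16.5 and 8.37 FPKM at 2G. Both 11G+FK libraries lay above both 11G and both 2G libraries, while the other pairs of wild-type groups overlapped. Cacna1a had a log2 change of 0.63 in 11G+D against 2G (adjusted p = 0.101 in edgeR's quasi-likelihood test, and passed by DESeq2). Under light it was at 18.3 and 14.3 FPKM against 11.8 and 11.8 FPKM without light, so that both lit libraries were higher (log2 change 0.42 ± 0.15, adjusted p = 0.276). Cacna1d, the pore of a further L-type channel, was at 17.1 and 12.1 FPKM at 11G+D, 12.5 and 9.43 FPKM at 11G+FK, 11.9 and 9.56 FPKM at 11G, and 16.6 and 5.86 FPKM at 2G. Its 2G libraries were the second highest and the lowest of the 8, and its largest log2 change over the wild-type comparisons was 0.52 in 11G+D against 2G (adjusted p = 0.226). The T-type pore Cacna1h lay between 1.12 and 2.21 FPKM over all 12 libraries, with log2 changes of 0.55 at 11G against 2G (adjusted p = 0.134) and -0.44 in 11G+D against 11G (0.265).

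Of the auxiliary voltage-gated subunits 12 of 16 were tested, and Cacng4 changed. Cacng4 (ENSMUSG00000020723, chromosome 11) belongs to the γ family, whose products accompany calcium channels and, in neurons, AMPA-type glutamate receptors. It was read at 68 and 96 counts at 11G+D, 114 and 167 at 11G+FK, 166 and 176 at 11G, and 37 and 92 at 2G. In FPKM that was 1.03 and 1.58 at 11G+D, 1.83 and 2.91 at 11G+FK, 2.16 and 2.70 at 11G, and 0.550 and 1.15 at 2G. The 11G libraries and the 11G+FK libraries overlapped, and both lay above the 11G+D and the 2G libraries. The log2 change at 11G against 2G was 1.62 ± 0.28 (3.08-fold, adjusted p = 0.0149), at 2.07 in mouse 1 and 1.19 in mouse 2. It did not pass without the 11G library of mouse 1 (adjusted p = 0.245). Diazoxide against 11G gave -0.95 ± 0.28 (adjusted p = 0.0947) and FK506 against 11G -0.14 (0.869), and FK506 against diazoxide gave 0.81 ± 0.28 (0.195). In ChR2 islets it was at 0.586 and 0.452 FPKM under light and 0.620 and 0.346 FPKM without light.

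Cacnb3, the most abundant auxiliary subunit, was at 49.2 and 50.4 FPKM at 11G+D, 56.5 and 74.7 FPKM at 11G+FK, 41.8 and 52.9 FPKM at 11G, and 56.6 and 60.1 FPKM at 2G. Both 11G+FK libraries lay above both 11G libraries (log2 change 0.40 ± 0.14, adjusted p = 0.352). Cacnb2, another cytoplasmic subunit, was at 9.07 and 8.81 FPKM at 11G+D, 7.19 and 5.31 FPKM at 11G+FK, 7.11 and 5.15 FPKM at 11G, and 8.84 and 4.92 FPKM at 2G. The 11G+D libraries were above all 4 libraries of 11G+FK and 11G, with log2 changes of 0.56 in 11G+D against 11G (adjusted p = 0.176) and -0.59 in 11G+FK against 11G+D (0.201). Cacna2d1, which sets channel density at the membrane, was at 20.7 and 16.4 FPKM at 11G+D, 21.6 and 13.3 FPKM at 11G+FK, 23.4 and 15.3 FPKM at 11G, and 21.8 and 8.87 FPKM at 2G. Mouse 1 was above mouse 2 in each of the 4 wild-type groups, and the log2 change at 11G against 2G was 0.47 (adjusted p = 0.207).

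Of the changes of members that passed, the largest was that of a calcium ATPase. Atp2b4 (ENSMUSG00000026463, chromosome 1) encodes a plasma membrane pump that expels calcium. It was at 3.84 and 3.10 FPKM at 11G+D, 4.02 and 3.19 FPKM at 11G+FK, 11.5 and 9.02 FPKM at 11G, and 4.34 and 2.58 FPKM at 2G. Both 11G libraries stood above the other 10 libraries of the study, the ChR2 islets being at 3.14 and 3.22 FPKM under light and 2.86 and 2.34 FPKM without light. The mean at 11G was 10.3 ± 1.76 FPKM against 3.46 ± 1.25 FPKM at 2G (SD, n = 2 each), a 3.13-fold rise with a log2 change of 1.65 ± 0.15 and an adjusted p of 0.000754. Each mouse showed it, by 1.53 in mouse 1 and 1.77 in mouse 2 on the log2 scale.

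With diazoxide Atp2b4 averaged 3.47 ± 0.524 FPKM, a log2 change of -1.58 ± 0.15 against 11G alone (adjusted p = 0.00104). With FK506 it averaged 3.60 ± 0.586 FPKM, a log2 change of -1.57 ± 0.15 against 11G alone (adjusted p = 0.00373). All 3 comparisons use the same pair of 11G libraries. The 4 libraries of 11G+D and 11G+FK lay within the range of the ChR2 and 2G libraries, and the log2 change of 11G+D against 2G was 0.07 (adjusted p = 0.834). The rise at 11G and the fall with diazoxide passed whichever library was left out (adjusted p at most 0.0239 and 0.0232). The fall with FK506 passed without the 11G library of mouse 2 (0.0472), but missed the threshold without the 11G library of mouse 1 (0.107), the 11G+FK library of mouse 1 (0.363) or that of mouse 2 (0.235), at log2 changes from -1.63 to -1.52 in all 4 fits. Without the mouse factor the log2 changes were 1.63 at 11G against 2G (adjusted p = 0.0689), -1.60 in 11G+D against 11G (0.0683) and -1.58 in 11G+FK against 11G (0.313).

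**Figure D3:**
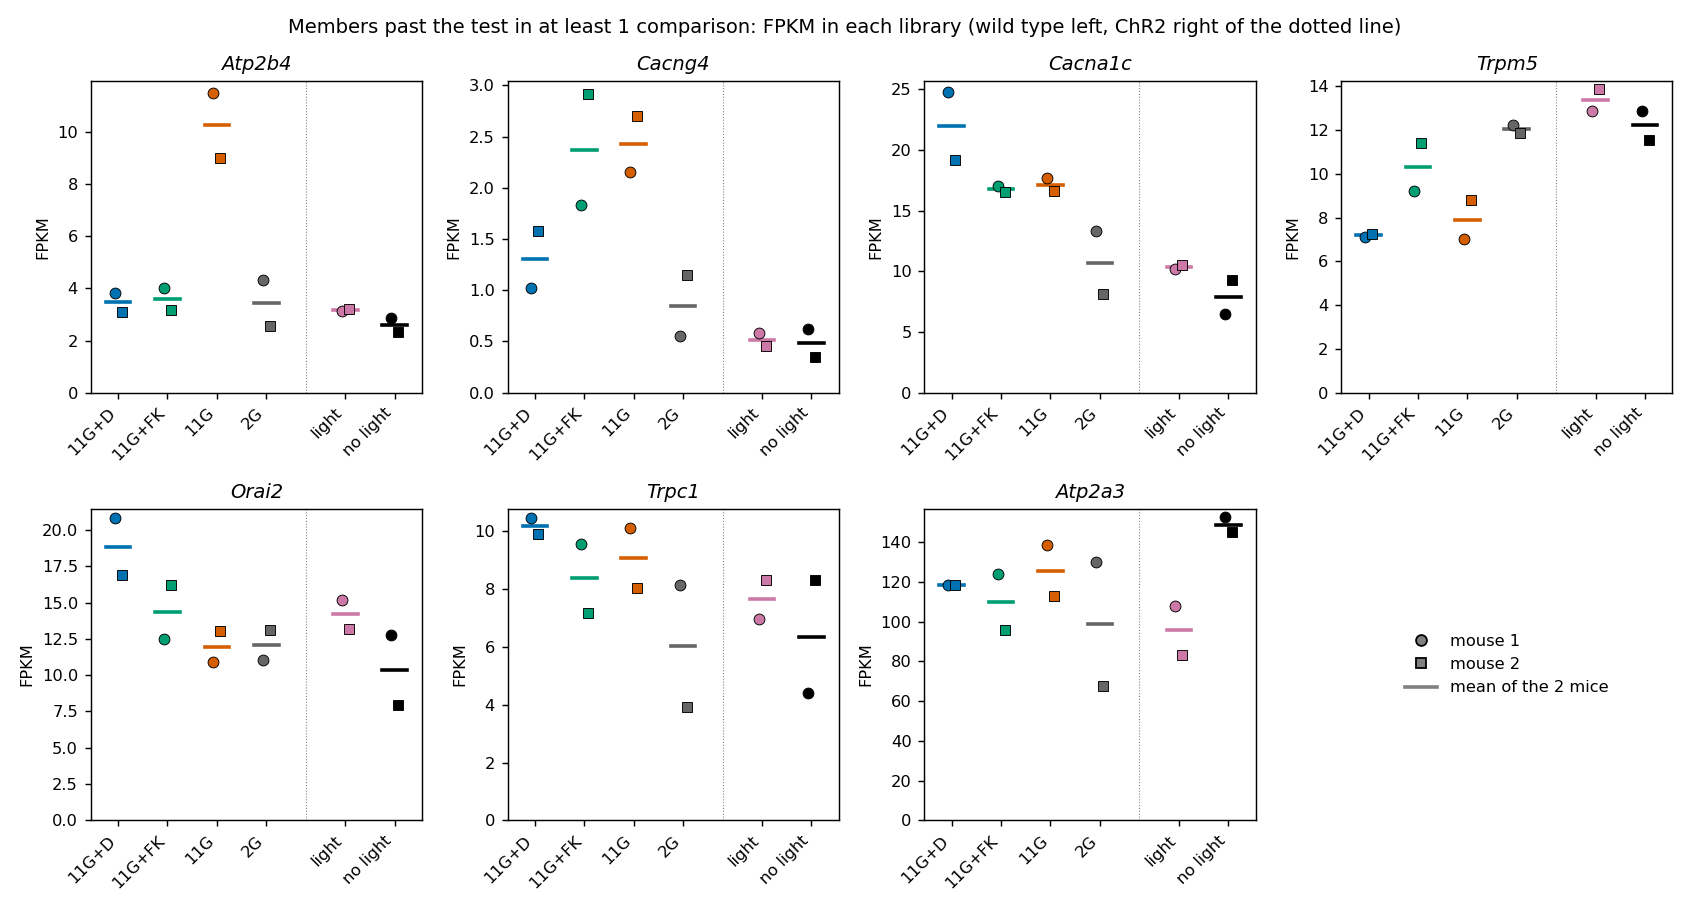
FPKM of the 7 members that passed in at least 1 comparison, in each library, with circles for mouse 1, squares for mouse 2 and a bar for the mean of the 2 mice; wild-type groups stand left and ChR2 groups right of the dotted line. Atp2b4 reaches 11.5 and 9.02 FPKM at 11G and stays at or under 4.34 FPKM elsewhere, whereas Cacna1c is high in all 3 groups held in 11 mM glucose.

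Atp2b1, the plasma membrane pump with the highest level here, was at 17.8 and 17.6 FPKM at 11G+D, 16.0 and 13.3 FPKM at 11G+FK, 23.7 and 20.4 FPKM at 11G, and 20.9 and 12.8 FPKM at 2G. Both 11G+D and both 11G+FK libraries lay under both 11G libraries. The log2 change was -0.66 ± 0.18 in 11G+FK against 11G (adjusted p = 0.221) and -0.32 in 11G+D against 11G (0.369), neither of which passed. Atp2b4 was thus below Atp2b1 in FPKM in each of the 12 libraries.

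The store pumps Atp2a2 and Atp2a3 were the most abundant members, whereas Atp2a1, a pump of the same type best known from skeletal muscle, averaged 0.316 FPKM in wild-type islets. Atp2a3 (ENSMUSG00000020788, chromosome 11) was at 108 and 83.3 FPKM under light against 153 and 145 FPKM without light. Both lit libraries were lower, with means of 95.6 ± 17.4 FPKM under light and 149 ± 5.26 FPKM without light (SD, n = 2 each). The log2 change was -0.68 ± 0.15 (1.60-fold lower) with an adjusted p of 0.0497, at the edge of the threshold; it was missed without the mouse factor (0.998), with all 12 libraries in 1 fit (0.286) and in that fit whichever of the 4 libraries was left out (0.396 to 0.771). In wild-type islets Atp2a3 was at 118 and 118 FPKM at 11G+D, 124 and 95.7 FPKM at 11G+FK, 138 and 113 FPKM at 11G, and 130.2 and 67.8 FPKM at 2G, groups that overlapped.

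Under light the 10 tested acinar markers had a median log2 change of -1.46 and 2 of them fell, with a summed share of 0.0392% and 0.00611% of reads under light against 0.0489% and 0.0308% without light. In the same comparison 1 β cell marker and 1 ductal marker fell and 1 endothelial marker rose, the endothelial list at a median log2 change of 0.50. The part of these markers in the change of Atp2a3 was not tested. Atp2a2 was at 210.4 and 166 FPKM under light and at 208 and 373 FPKM without light, groups that overlapped (log2 change -0.60 ± 0.21, adjusted p = 0.267). In wild-type islets Atp2a2 was at 151 and 169 FPKM at 11G+D, 240.2 and 154 FPKM at 11G+FK, 283 and 212 FPKM at 11G, and 292 and 158 FPKM at 2G. Both 11G+D libraries were under both 11G libraries (log2 change -0.59 ± 0.25, adjusted p = 0.236). Atp2c1, the Golgi calcium and manganese pump, lay between 24.2 and 42.5 FPKM over the 12 libraries, with log2 changes from -0.36 to 0.17 over the 6 comparisons.

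Of the 6 store release channels 4 were tested and 0 passed in edgeR's quasi-likelihood test in any comparison; at an unadjusted p under 0.05 there was 1 in each of 5 comparisons and 0 in 11G+FK against 11G, and DESeq2 passed 0 as well. Itpr3, the most abundant, was at 14.95 and 11.7 FPKM at 11G+D, 18.8 and 18.3 FPKM at 11G+FK, 17.2 and 17.4 FPKM at 11G, and 20.0 and 17.2 FPKM at 2G. The 11G+D libraries were the lowest of the wild-type ones. The log2 changes of Itpr3 were -0.41 in 11G+D against 11G (adjusted p = 0.149), -0.46 in 11G+D against 2G (0.0846) and 0.44 in 11G+FK against 11G+D (0.162), comparisons that share the 11G+D libraries. Under light it was at 9.93 and 10.5 FPKM against 11.2 and 15.1 FPKM without light (log2 change -0.38, adjusted p = 0.333). Itpr1 was at 12.8 FPKM in mouse 1 and 4.21 FPKM in mouse 2 at 2G, its highest and its lowest value over the 12 libraries. Itpr2 lay between 1.48 and 3.26 FPKM, with a log2 change of -0.45 at 11G against 2G (adjusted p = 0.172).

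In store-operated entry, Stim proteins sense the loss of calcium from the endoplasmic reticulum and open Orai pores in the plasma membrane. Orai2 (ENSMUSG00000039747, chromosome 5) was at 20.8 and 16.9 FPKM at 11G+D, 12.5 and 16.2 FPKM at 11G+FK, 10.9 and 13.01 FPKM at 11G, and 11.0 and 13.1 FPKM at 2G. Both 11G+D libraries were above the other 6 wild-type libraries. The log2 change of 11G+D against 2G was 0.68 ± 0.17 (1.60-fold, adjusted p = 0.0479), with means of 18.8 ± 2.79 FPKM at 11G+D and 12.1 ± 1.48 FPKM at 2G (SD, n = 2 each). Against 11G alone it was 0.64 ± 0.17 (adjusted p = 0.0671 in edgeR's quasi-likelihood test, and passed by DESeq2), and 11G against 2G gave 0.03 (0.930). Its rise passed without the 11G+D library of mouse 2 (0.0302) and missed the threshold without any other 1 of the libraries compared (0.0936 to 0.159). Under light Orai2 was at 15.2 and 13.2 FPKM against 12.8 and 7.92 FPKM without light, groups that did not overlap (log2 change 0.46, adjusted p = 0.332).

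Orai3 was at 13.2 and 18.3 FPKM at 11G+D, 14.3 and 15.1 FPKM at 11G+FK, 16.4 and 18.8 FPKM at 11G, and 11.5 and 11.2 FPKM at 2G. The 6 libraries in 11 mM glucose were above both 2G libraries. The log2 change of Orai3 at 11G against 2G was 0.68 ± 0.18 (adjusted p = 0.0557 in edgeR's quasi-likelihood test), which did not pass. It did pass in DESeq2, with no filter on low counts and with the filter of at least 10 CPM in 2 libraries. Orai1 was at 5.54 and 6.78 FPKM at 11G+D, 7.998 and 9.08 FPKM at 11G+FK, 6.62 and 8.05 FPKM at 11G, and 5.65 and 12.1 FPKM at 2G, the last being its highest value in any library. Stim1 was at 16.2 and 19.4 FPKM at 11G+D, 20.1 and 13.1 FPKM at 11G+FK, 20.0 and 19.4 FPKM at 11G, and 27.2 and 19.3 FPKM at 2G, with log2 changes from -0.32 to -0.15 over the 6 comparisons and none past the test.

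The sodium calcium exchangers and the uniporter genes had 0 calls in edgeR's quasi-likelihood test; at an unadjusted p under 0.05 the 6 tested exchangers had 0 in each comparison, and the 5 uniporter genes had 1 at 11G against 2G and 1 in 11G+FK against 11G+D, Micu2 in both, and DESeq2 passed 0 of either role. Slc8a1, the sodium calcium exchanger of the plasma membrane, was at 2.59 and 3.50 FPKM at 11G+D, 3.22 and 1.72 FPKM at 11G+FK, 5.28 and 3.34 FPKM at 11G, and 7.15 and 1.87 FPKM at 2G. Its 2G libraries were the highest and the second lowest of the 8, and FK506 against 11G gave a log2 change of -0.89 (adjusted p = 0.487). Slc24a2 was likewise at 11.9 FPKM in mouse 1 and 4.18 FPKM in mouse 2 at 2G, its highest and lowest values. Mcu, the uniporter pore, lay between 7.84 and 13.4 FPKM over the 12 libraries. Micu2 was at 25.8 and 28.1 FPKM at 11G against 37.5 and 34.6 FPKM at 2G; both 11G libraries were lower (log2 change -0.38 ± 0.14, adjusted p = 0.146).

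Among the TRPM and TRPC channels 11 of 13 were tested. Trpm5 (ENSMUSG00000009246, chromosome 7) encodes a calcium-activated channel for monovalent cations that depolarizes the β cell. It was at 7.13 and 7.25 FPKM at 11G+D, 9.21 and 11.4 FPKM at 11G+FK, 7.03 and 8.79 FPKM at 11G, and 12.2 and 11.9 FPKM at 2G. All 6 libraries in 11 mM glucose were below both 2G libraries, those with FK506 nearest to them. The log2 change of 11G+D against 2G was -0.72 ± 0.15 (1.64-fold lower, adjusted p = 0.0287), with means of 7.19 ± 0.0839 FPKM at 11G+D and 12.0 ± 0.242 FPKM at 2G (SD, n = 2 each). At 11G against 2G it was -0.57 ± 0.15 (adjusted p = 0.0575 in edgeR's quasi-likelihood test, and passed by DESeq2), and 11G+FK against 11G gave 0.32 (0.469). The fall at 11G+D passed without the 11G+D library of mouse 1 (0.0445) and missed the threshold without any other 1 of the libraries compared (0.0509 to 0.0942). Trpm5 overlaps Tssc4 on the opposite strand over 1845 bases, and Tssc4, at a mean of 53.3 FPKM, had a log2 change of 0.10 in 11G+D against 2G.

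Trpc1 (ENSMUSG00000032839, chromosome 9), a cation channel subunit, was at 10.4 and 9.91 FPKM at 11G+D, 9.57 and 7.17 FPKM at 11G+FK, 10.1 and 8.04 FPKM at 11G, and 8.13 and 3.92 FPKM at 2G. At 11G against 2G its log2 change was 0.69 ± 0.21 (adjusted p = 0.0909 in edgeR's quasi-likelihood test), a change that DESeq2 passed. The log2 change of 11G+D against 2G was 0.87 ± 0.22 (1.82-fold, adjusted p = 0.0483), at 0.37 in mouse 1 and 1.38 in mouse 2. It missed the threshold without the 2G library of mouse 2 (0.210) or the 11G+D library of mouse 2 (0.222). Trpm4, a relative of Trpm5, was at 6.12 and 7.07 FPKM at 11G+D, 8.84 and 13.2 FPKM at 11G+FK, 5.83 and 9.89 FPKM at 11G, and 7.31 and 8.78 FPKM at 2G. Both 11G+FK libraries lay above both 11G+D libraries (log2 change 0.67 ± 0.16, adjusted p = 0.0833 in edgeR's quasi-likelihood test), the comparison in which DESeq2 passed it. Trpm7 was at 15.8 and 12.3 FPKM at 11G+D, 10.8 and 10.8 FPKM at 11G+FK, 9.59 and 10.6 FPKM at 11G, and 14.0 and 9.39 FPKM at 2G. Both 11G+D libraries were above both 11G libraries (log2 change 0.44, adjusted p = 0.179), while the 2G library of mouse 1 lay between the 11G+D libraries.

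The starts of the 4 members that rose and have an entry are shown with the core letters bound by NFAT, the target of calcineurin, by CREB, a factor activated by calcium signals, and by E-box factors, among them the glucose-activated ChREBP. RefSeq's table of promoters (GRCm38.p6, from 250 bases before to 50 after a gene's start) held 57 of the 72 members and 6 of the 7 that passed. Each sequence reads along its gene, all 4 on the minus strand, and capitals mark GGAAA (NFAT core), TGACG (cAMP response element core) and CACGTG (E-box), searched on both strands. The windows are chr1:133753698-133753997 for Atp2b4, chr6:119196360-119196659 for the first of 3 starts of Cacna1c, chr5:136170607-136170906 for Orai2 and chr9:95750299-95750598 for Trpc1.
Atp2b4: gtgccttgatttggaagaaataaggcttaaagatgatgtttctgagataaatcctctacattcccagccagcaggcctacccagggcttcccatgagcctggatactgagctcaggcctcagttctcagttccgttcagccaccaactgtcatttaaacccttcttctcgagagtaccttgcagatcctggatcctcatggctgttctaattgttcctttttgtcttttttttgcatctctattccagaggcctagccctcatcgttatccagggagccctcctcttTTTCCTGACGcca
Cacna1c: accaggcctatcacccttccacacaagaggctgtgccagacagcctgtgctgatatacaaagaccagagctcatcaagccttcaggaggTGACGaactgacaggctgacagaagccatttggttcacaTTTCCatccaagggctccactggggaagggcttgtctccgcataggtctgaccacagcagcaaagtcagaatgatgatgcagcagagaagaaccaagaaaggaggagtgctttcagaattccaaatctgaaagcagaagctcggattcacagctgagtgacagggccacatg
Orai2: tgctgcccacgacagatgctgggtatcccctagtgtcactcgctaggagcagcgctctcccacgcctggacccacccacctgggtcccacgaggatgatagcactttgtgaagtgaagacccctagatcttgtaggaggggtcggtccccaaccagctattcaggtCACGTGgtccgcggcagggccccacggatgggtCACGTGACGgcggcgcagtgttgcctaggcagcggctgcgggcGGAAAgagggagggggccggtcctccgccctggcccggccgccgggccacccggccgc
Trpc1: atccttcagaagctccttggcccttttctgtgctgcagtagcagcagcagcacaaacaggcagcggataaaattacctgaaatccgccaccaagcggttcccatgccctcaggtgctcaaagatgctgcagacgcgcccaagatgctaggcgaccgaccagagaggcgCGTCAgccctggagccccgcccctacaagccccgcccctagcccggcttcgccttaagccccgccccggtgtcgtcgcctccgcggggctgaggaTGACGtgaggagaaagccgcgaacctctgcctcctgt

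In the Atp2b4 window a GGAAA, on the opposite strand, and a TGACG stood end to end close to the window's 3′ end. The window of the first Cacna1c start held 1 of each, apart from one another; that of the second held none of the 3 motifs and that of the third held 2 GGAAA alone, and which of the 3 starts the islets use was not tested. The Orai2 window held 1 GGAAA, and 2 E-boxes of which the second shares 2 bases with the 1 TGACG. The Trpc1 window held 2 TGACG, 1 on each strand. GGAAA was found in 42 of the 73 windows of members (57.5%) and in 61.3% of all 32851 windows. TGACG was found in 17 of the members' windows (23.3%) and in 20.8% of all, and CACGTG in 5 (6.85%) and in 7.15% of all. A match is a description of letters; the RefSeq start of Atp2b4 lies inside the span of the gene in the tables, whose own 5′ end is upstream of it.

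Genes outside the 72 that act on calcium were followed through a list of 51 names, of which 46 were found and 40 tested. The names were chosen with earlier results of these data known. Shares of the list set beside those of all genes therefore cannot show an excess among calcium genes. At 11G against 2G, 4 rose (Rem2, Tmem165, Pkd2 and P2rx4) and 1 fell (Vdac3), 12.5% of those tested, while 4.84% of all genes passed. Rem2, a small GTPase that inhibits voltage-gated calcium channels through their β subunits, was at 7.02 and 6.76 FPKM at 11G against 1.71 and 2.46 FPKM at 2G (log2 change 1.78 ± 0.26, adjusted p = 0.00652). With diazoxide it was at 0.897 and 1.01 FPKM, a log2 change of -2.88 ± 0.28 against 11G (adjusted p = 0.00104). With FK506 it was at 5.64 and 5.96 FPKM, a log2 change of 2.56 ± 0.28 against 11G+D (adjusted p = 0.00738). The diazoxide libraries of Rem2 thus lay below those of each other wild-type group.

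Gem, a GTPase of the same family, was at 75.1 and 55.1 FPKM under light against 38.6 and 16.0 FPKM without light (log2 change 1.34 ± 0.19, adjusted p = 0.00142). With diazoxide Gem was at 27.9 and 21.5 FPKM against 54.0 and 36.5 FPKM at 11G (log2 change -0.90 ± 0.21, adjusted p = 0.0477). With FK506 it was at a like level, 28.2 and 29.2 FPKM, a log2 change of -0.72 ± 0.21 against 11G that did not pass (adjusted p = 0.280). P2rx4, a cation channel opened by extracellular ATP, was at 30.7 and 30.9 FPKM at 11G against 18.0 and 16.6 FPKM at 2G (log2 change 0.88 ± 0.14, adjusted p = 0.00878). Vdac3, a channel of the outer mitochondrial membrane, was at 46.0 and 63.9 FPKM at 11G against 88.6 and 102 FPKM at 2G (log2 change -0.76 ± 0.13, adjusted p = 0.0137). Over the list, 2 genes fell in 11G+D against 11G (Rem2 and Gem), 5.0% beside 3.79% of all genes. In 11G+D against 2G, 2 rose and 1 fell, 7.5% beside 5.22%. In 11G+FK against 11G+D 1 rose, 2.5% beside 1.17%, and under light 1 rose, 2.5% beside 0.844%. In 11G+FK against 11G, 0 passed in edgeR's quasi-likelihood test beside 0.23% of all genes. An unadjusted p under 0.05 was reached there by 5 (12.5%), beside 10.8% of all genes, and DESeq2 passed 1.

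Deposited columns are named in different styles for mouse 1 and mouse 2, in wild type as in ChR2. A mouse and any separate handling of its libraries cannot be told apart. At 2G the members differed between the libraries of the 2 wild-type mice. There, 46 of the 60 tested members were lower in mouse 2, with a median log2 difference (mouse 2 minus mouse 1) of -0.59 over members and close to 0 over all genes. At least 2-fold lower in mouse 2 were 18 of the 60 members, where 9.71% of all genes were. At 11G, 3 of the 60 were at least 2-fold lower in mouse 2, where 3.05% of all genes were. Members at least 2-fold higher in mouse 2 numbered 6 at 2G and 0 at 11G, and the share of all genes that were so was not computed. The median over members was -0.27 at 11G, -0.19 at 11G+D and -0.15 at 11G+FK. In ChR2 islets it was within 0.01 of 0 both under light and without light.

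The members are long, with a median length of 4773 bases against 2973 bases over all genes tested, and at 2G genes of at least the median length had a median log2 difference of -0.17 and shorter ones 0.16. At 11G these values were -0.08 and 0.04, at 11G+D -0.05 and 0.06, and at 11G+FK -0.06 and 0.07. The 6 α cell markers took 0.771% of reads in mouse 2 and 1.17% in mouse 1 at 11G+D, 0.338% and 1.04% at 11G+FK, 0.767% and 1.31% at 11G, and 0.359% and 1.59% at 2G. In ChR2 islets they took 0.452% in mouse 2 and 0.230% in mouse 1 under light, and 0.487% and 0.193% without light. Other lists also differed between the mice at 2G. Ductal markers took 0.359% in mouse 2 and 0.178% in mouse 1, and endothelial ones 0.134% and 0.0764%. Acinar markers took 0.102% and 0.0557%, and stellate ones 0.0185% and 0.00900%. The PP, immune and Schwann cell lists were also higher in mouse 2, and the β and δ cell lists lower. The part of length and of these cell type shares in the result was not tested.

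In the change at 11G against 2G, 29 of 60 members (48.3%) went opposite ways in the 2 mice, as did 34.2% of all genes. For 11G+D against 11G it was 18 members (30.0%) against 35.8% of all genes. For 11G+FK against 11G it was 16 members (26.7%) against 31.1%. The median change of the members at 11G against 2G was 0.07, at 0.01 in mouse 1 and 0.22 in mouse 2, beside -0.01 over all genes. Cacna1d, Itpr1, Slc8a1 and Slc24a2 were among those that were lower at 11G in mouse 1 and higher in mouse 2, and Orai1 the reverse. Atp2b4, Cacng4, Cacna1c and Orai3 were higher at 11G in both.

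**Figure D4:**
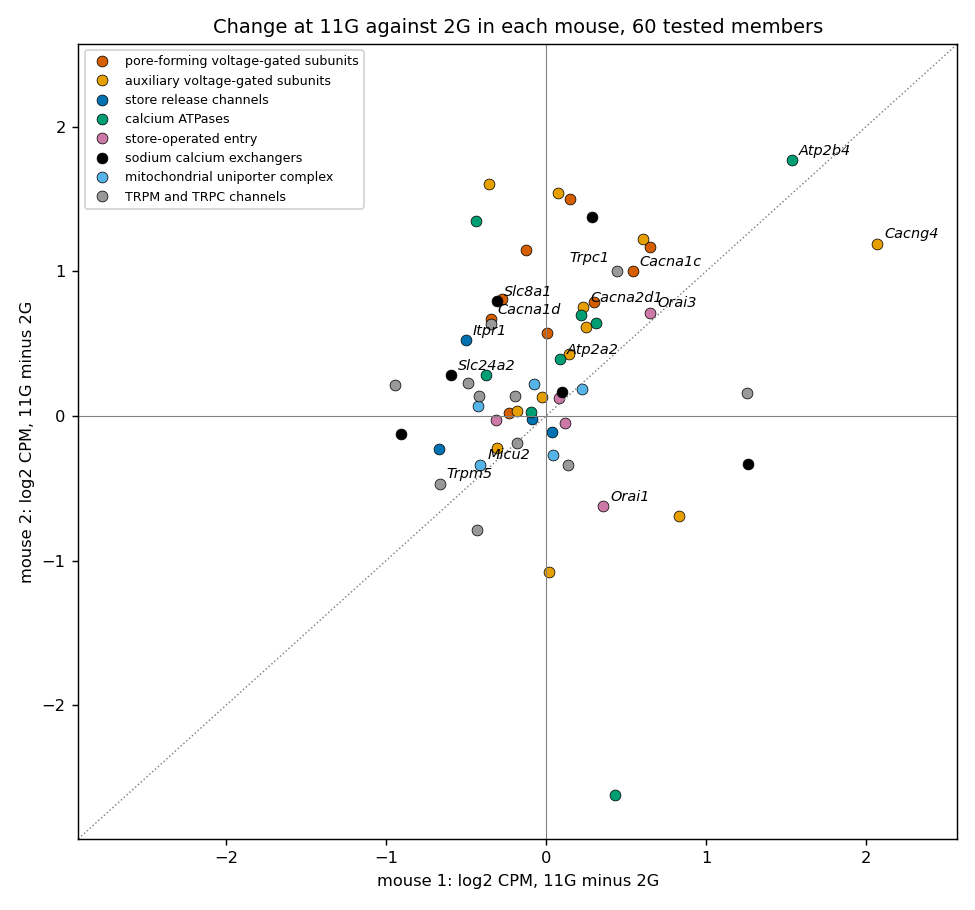
Log2 change of each of the 60 tested members at 11G against 2G in mouse 1 (x axis) and mouse 2 (y axis), from log2 CPM, coloured by role; the dotted line marks equal change. Atp2b4 lies at 1.53 and 1.77 and Cacng4 at 2.07 and 1.19, while 29 members lie in the quadrants of opposite direction.

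Most members stayed within 2-fold of no change in each comparison, as did most genes. Within 2-fold were 57 of 60 members at 11G against 2G (91.2% of all genes), 56 in 11G+D against 11G (92.6%), 55 in 11G+FK against 11G (95.4%), 57 in 11G+D against 2G (91.5%), 57 in 11G+FK against 11G+D (93.7%) and 56 of 56 under light (95.2%). The median log2 change of the members was -0.08 in 11G+D against 11G and -0.07 in 11G+FK against 11G, beside 0.00 and 0.01 over all genes. It was 0.04 in 11G+D against 2G and 0.02 under light, beside -0.02 and 0.01 over all genes. At an unadjusted p under 0.05 were 12 of 60 members at 11G against 2G, 10 in 11G+D against 11G, 7 in 11G+FK against 11G, 10 in 11G+D against 2G and 6 of 56 under light. The matching shares of all genes were 23.1%, 18.7%, 10.8%, 22.8% and 11.2%.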

How the data were processed

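The authors deposited 8 tables, each of 2 libraries of 1 mouse. Per the file headers they hold raw read counts, FPKM values, and normalized counts, a signal that the authors scaled per table, with the authors' log2 fold change, p-value and adjusted p-value, which were not used. The deposited FPKM equalled counts divided by the tables' gene length and the library total. For the aligner, the counter, strand and build: not given in the sources used here. All 72 members were found in GENCODE M21, 46 with both ends as in the tables. No column of unknown sample was met.

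The joined raw counts went through edgeR 4.0.16 (R 4.3.3; TMM, filterByExpr with minimum count 10 and minimum total 15, quasi-likelihood test, two-sided, Benjamini-Hochberg over all genes, threshold 0.05). The 8 wild-type libraries formed 1 fit (16087 genes, 3 residual degrees of freedom), the 4 ChR2 libraries another (15171 genes, 1 residual degree of freedom). SE is the log2 change over the square root of F. Per-mouse changes are log2 CPM differences with a prior count of 1. The mouse number was a block because the labels give the same mouse under each condition; same-numbered libraries deviated together by r = 0.145 to 0.456 in wild type and 0.503 in ChR2. The code was tested on simulated data. Alternatives were no block, RLE factors, DESeq2 1.42.0, no filter, 1 fit of all 12 libraries, a filter of at least 10 CPM in 2 of them, and each library left out.

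Members, roles, the list of 51 further genes, cell type markers and motifs were chosen with earlier results of these data known. Members past the test in at least 1 comparison are named with values. So are a set of 23 chosen members and the member of highest mean FPKM in each role. Some of these are given only as a range or in part of the groups. Orai3, Cacna1e, Ryr3, Cacna1s and Atp2a1 are outside this rule and were added after their values were seen. The values of 1 member, which is counted in the totals, are not reported here. Of the 51 names, 5 (Saraf, Stimate, Sln, Selenok and Itprip) matched no row by name.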

Additional observations from a re-analysis of the deposited data

How the results depend on the processing

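Over the 10 calls of members, 64 of 99 values under an alternative passed the test and 35 did not, with 0 changes of direction. Counts of members called moved as follows. Without the mouse block, and so without the pairing, they were 0 in every comparison, against 3 at 11G against 2G, 1 in 11G+D against 11G, 1 in 11G+FK against 11G, 4 in 11G+D against 2G and 1 under light; the calls over all genes fell with them, to 0 to 68. DESeq2 called 6 at 11G against 2G (1315 of all genes, 778 in edgeR), 2 in 11G+D against 11G (895, 610 in edgeR) and 1 in 11G+FK against 11G+D (501, 188 in edgeR). With no filter on low counts there were 6 at 11G against 2G (1672 of all genes), 3 in 11G+D against 11G (1085), 2 in 11G+FK against 11G (309), 2 in 11G+FK against 11G+D (617) and 2 under light (419). At a minimum of 10 CPM in 2 libraries, and with all 12 libraries in 1 fit, 11G+D against 2G had 2 (735 and 887 of all genes, 840 as reported); with all 12 in 1 fit light had 0 (6 of all genes, 128 as reported). Leaving out 1 library at a time gave 1 to 7 at 11G against 2G, 1 to 3 in 11G+D against 11G, 0 to 1 in 11G+FK against 11G, 0 to 5 in 11G+D against 2G, 0 to 1 in 11G+FK against 11G+D and 0 to 0 under light; where a group is left with 1 library, that library is assumed to vary like the others. The cause of these shifts was not tested. Of the 7 genes, Atp2b4 at 11G against 2G and in 11G+D against 11G held under 9 of 10 alternatives each, and Orai2 and Atp2a3 under 4 of 10 each. Depth limits the 12 members outside the wild-type test, which had 0 to 15 reads in the wild-type libraries. The 73 reads given above were those of Cacng3 in a ChR2 library.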

Other observations

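The libraries of the 2 ChR2 mice differed in a few channel genes irrespective of light. Here too a mouse and any separate handling of its libraries cannot be told apart. Trpc4, a cation channel subunit, was at 0.659 FPKM in mouse 1 and 4.84 FPKM in mouse 2 under light, and at 0.701 and 4.05 FPKM without light, while wild-type libraries reached at most 1.16 FPKM. Cacng3, of the γ family, was at 0.103 FPKM in mouse 1 and 0.772 FPKM in mouse 2 under light, and at 0.142 and 1.38 FPKM without light. Cacng2, its relative, ran the other way, at 0.710 FPKM in mouse 1 and 0.0556 FPKM in mouse 2 under light, and at 0.717 and 0.191 FPKM without light. These members were picked after their values were seen, and the difference between the mice was not tested.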
